A study of Mus musculus with 10 samples.

Results

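The genes described here encode insulin-like growth factor 1 (Igf1), the acid-labile subunit (Igfals) and the 7 IGF binding proteins Igfbp1 to Igfbp7. They were chosen by name, 9 of the 22180 genes with a symbol of their own on the array, and each of the 9 was read by 1 transcript cluster, the array's unit for a gene. RNA came from livers of fasted male mice about 2 weeks after injection of an adeno-associated virus whose cargo is driven by the hepatocyte promoter TBG. Control virus carried GFP, and the other virus FST288, a form of follistatin, which binds and neutralises activins outside the cell. Wild-type mice kept on a high-fat diet (HFD) gave 3 GFP and 3 FST288 samples, and mice labelled LTKO gave 2 GFP and 2 FST288 samples. As background, LTKO stands for mice whose hepatocytes lack Irs1, Irs2 and Foxo1, that is, adaptors of the insulin receptor and a transcription factor that insulin holds in check. The labels give neither the diet of the LTKO mice nor the age of any mouse, so genotype and diet cannot be told apart in a comparison of LTKO with HFD livers. All mice carried a virus, and wild-type mice on chow were not analysed here. Whether every sample came from its own animal is not spelled out in the labels; if not, p-values measure only the spread between these samples.

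IGF1 in the blood comes mainly from hepatocytes, which make it in response to growth hormone through the receptor GHR, the kinase JAK2 and the transcription factor STAT5. Most of it circulates in a complex with IGFBP3 and the acid-labile subunit, which holds it in the vessels, while smaller binding proteins carry it out of them or keep it from its receptor. Igfbp1 is a classical fasting gene that insulin represses through FoxO factors, and Igfbp2 is the other binding protein that hepatocytes release in quantity during fasting. Igfbp3, Igfbp5, Igfbp6 and Igfbp7 are made largely by the non-parenchymal cells of the liver.

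Igfbp1 and Igfbp2 were the members that passed a test, and the 250 bases before their starts are shown because both genes are read as reporters of insulin action. The sequences are RefSeq's for GRCm38.p6, 5′ to 3′ on the plus strand, at chr11:7197537-7197786 for Igfbp1 and chr1:72824230-72824479 for the more upstream of 2 starts of Igfbp2. Capitals mark a match to any of the 3 motifs CAAAACA, the core of the insulin response sequence, GTAAACA, the forkhead core, and TTCNNNGAA, the STAT5 type site, each searched on both strands.
Igfbp1: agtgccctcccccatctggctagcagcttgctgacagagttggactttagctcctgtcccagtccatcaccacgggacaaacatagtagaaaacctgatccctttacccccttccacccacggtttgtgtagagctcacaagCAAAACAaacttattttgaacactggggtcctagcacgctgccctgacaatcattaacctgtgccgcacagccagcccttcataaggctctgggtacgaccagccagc
Igfbp2: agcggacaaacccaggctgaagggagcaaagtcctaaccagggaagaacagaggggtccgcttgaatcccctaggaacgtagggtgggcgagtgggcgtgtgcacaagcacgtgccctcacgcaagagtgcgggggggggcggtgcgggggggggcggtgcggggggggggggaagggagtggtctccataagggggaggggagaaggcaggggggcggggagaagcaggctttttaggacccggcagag
In Igfbp1 the exact letters CAAAACA were found 1 time, from 108 to 102 bases before the start. Near matches, such as the tattttg shortly after it, were not searched and are not counted. Neither Igfbp2 window held a match to any of the 3 motifs. Of 32851 windows of the same length before RefSeq starts, 5.56% held CAAAACA, 3.17% GTAAACA and 7.02% TTCNNNGAA. Over the 12 windows of the 9 members, CAAAACA occurred in 1, GTAAACA in 1 and TTCNNNGAA in 2, the last 3 matches all before alternative starts of Igfals. A match describes letters and was not tested as a binding site. In the order of coding genes on GRCm38.p6, Igfbp1 lies next to Igfbp3 on chromosome 11, and Igfbp2 next to Igfbp5 on chromosome 1.

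The values are log2 intensities, so a difference of 1 is a doubling, and an array gives no depth; the number of arrays limits the precision. Array medians lay between 2.71 and 2.75, and correlations between arrays of a group between 0.989 and 0.993. Fst was higher with the FST288 vector on every array of both backgrounds, by 1.08 ± 0.19 in HFD and 1.45 ± 0.23 in LTKO livers (log2 change ± SE; limma adjusted p = 0.015 and 0.0307, above 0.05 in 4 and 7 of the 10 fits that left out 1 array). With GFP, LTKO livers held 3.40-fold less Irs1, 2.31-fold less Irs2 and 3.21-fold less Foxo1 signal than HFD livers; for Irs2, leaving out LTKO GFP replicate 1 ended the call (adjusted p = 0.0713). With GFP the log2 changes of Irs1 and Foxo1 were -1.77 and -1.68. Under 9 other planned settings, beside leaving out 1 array, they ranged from -1.80 to -0.89 and from -1.72 to -0.90. Both genes were called in all 9. The hepatocyte list, 10 genes, had medians of 12.06 to 12.16 on the HFD arrays and 11.61 to 11.83 on the LTKO arrays. It holds 1 gene that is no hepatocyte marker, the neuropeptide gene Trh, matched by an alias in place of Trf. Group means of Trh were 2.36 in HFD GFP and 2.39 in HFD FST288 livers, so the medians include 1 dim gene. Markers of pancreatic acinar cells, 9 of them, summed to 11.71 in replicate 2 and 10.61 in replicate 3 of the HFD FST288 group, and to 6.23 to 6.67 on the remaining arrays, replicate 1 of that group included (log2 of the sum). Calls that rest on the HFD FST288 arrays are therefore set beside a fit without replicates 2 and 3, or with the acinar level as a term. The first leaves 1 array in that group, whose spread is taken to be that of the other groups.

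**Figure D1:**
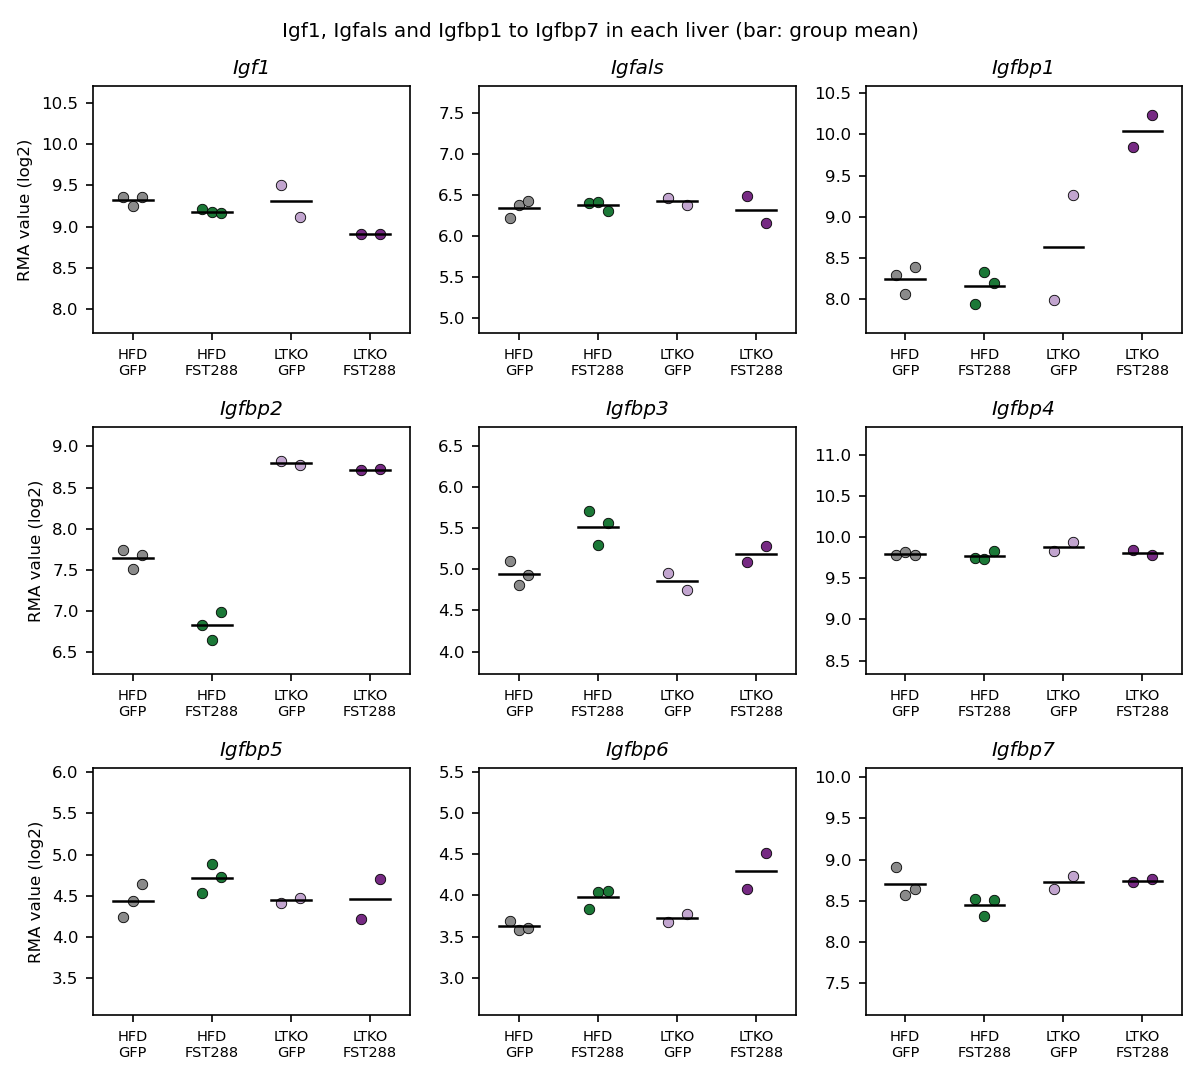
Log2 RMA value of each member on each of the 10 arrays, by group, with a bar at the group mean; every panel spans the same number of log2 units. Igfbp2 separates HFD GFP, HFD FST288 and LTKO arrays, and Igfbp1 is highest on the 2 LTKO FST288 arrays, at 9.85 and 10.24.

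Igfbp2 was the member that differed most clearly among the groups. On the HFD GFP arrays it read 7.74, 7.51 and 7.68, and on the HFD FST288 arrays 6.83, 6.65 and 6.99. The groups did not overlap, and the highest FST288 value, 6.99, lay below the lowest GFP value, 7.51. Igfbp2 thus fell with follistatin in HFD livers, 1.76-fold, from 7.64 ± 0.12 to 6.83 ± 0.17 (SD, n = 3 and 3), a log2 change of -0.82 ± 0.10 (SE) with an adjusted p of 0.00111 by limma. The call held in all 10 fits that left out 1 array, with changes from -0.90 to -0.73. Without the acinar-high HFD FST288 replicates 2 and 3 the change was -0.81, and with the acinar level in the fit -0.79, but adjusted p rose to 0.0743 and 0.059. HFD FST288 replicate 1, whose acinar markers were at the level of the GFP livers, had the middle Igfbp2 value of its group. That is 1 array, and the part of acinar tissue in the Igfbp2 values was not tested.

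In LTKO livers Igfbp2 was high with either vector. It read 8.82 and 8.77 with GFP and 8.71 and 8.73 with FST288. The FST288 change there was -0.08 ± 0.12, with a 95% interval from -0.33 to 0.18 and an adjusted p of 0.894. The test of the difference between the backgrounds gave 0.74 ± 0.15 (LTKO effect minus HFD effect; unadjusted p = 0.000325, limma adjusted p = 0.082), so a weaker effect in LTKO livers was not called. With GFP, Igfbp2 was 2.22-fold higher in LTKO than in HFD livers (8.80 ± 0.03 against 7.64 ± 0.12, n = 2 and 3; limma adjusted p = 9.9e-06). With FST288 it was 3.71-fold higher (8.72 ± 0.01 against 6.83 ± 0.17; limma adjusted p = 1.14e-07). Both calls held in all 10 leave-one-out fits and with the acinar level taken into account, where the changes were 1.15 and 1.86. The order of group means was HFD FST288, HFD GFP, LTKO FST288 and LTKO GFP, and the difference between the LTKO neighbours was within its error. Cell type markers also differed between the backgrounds. With GFP, 4 of the 10 genes in the hepatocyte list, which includes Trh, were lower and 2 higher in LTKO livers. The sum of 12 stellate cell markers was 10.81 to 11.10 on the LTKO and 10.43 to 10.57 on the HFD arrays (log2 of the sum). Medians of the same 12 markers overlapped, at 5.81 to 6.13 on the LTKO and 5.96 to 6.24 on the HFD arrays. Of these 12, limma called 2 higher and 1 lower in LTKO livers with GFP, and 4 higher and 0 lower with FST288. The part of the hepatocyte and stellate markers in the Igfbp2 and Igfbp1 values was not tested. These comparisons share groups, so the low HFD FST288 mean enters the FST288 effect, the difference of effects and the LTKO comparison with FST288.

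Igfbp1, the fasting-induced binding protein, had a wide spread among LTKO livers. The HFD GFP arrays read 8.29, 8.06 and 8.39 and the HFD FST288 arrays 7.94, 8.32 and 8.20, an overlapping pair of groups with a change of -0.09 ± 0.24 (limma adjusted p = 0.92). Without the acinar-high arrays this change was -0.31 and with the acinar level in the fit -0.30, again without a call. The LTKO GFP arrays read 7.99 and 9.27, so that 1 lay below all but the lowest HFD array and the other above every HFD array. Their SD of 0.90 was larger than that of 99.9% of all genes in that group.

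With FST288 the LTKO arrays read 9.85 and 10.24 for Igfbp1, above all other arrays of the study. Compared with HFD FST288 livers Igfbp1 was 3.71-fold higher in LTKO FST288 livers (10.04 ± 0.27 against 8.15 ± 0.20, n = 2 and 3; limma adjusted p = 0.000318), a call that held in all 10 leave-one-out fits. Without the acinar-high arrays, against the 1 HFD FST288 array left, the difference was 2.10 (adjusted p = 0.00959). Against LTKO GFP livers the change was 1.41 ± 0.29, or 2.67-fold, with a 95% interval from 0.79 to 2.04, and was not called (unadjusted p = 0.000287, limma adjusted p = 0.104). It was 2.05 and called without LTKO GFP replicate 2 (adjusted p = 0.000539), 1.61 and called without LTKO FST288 replicate 1 (0.0485), and 0.78 without LTKO GFP replicate 1, where adjusted p was 0.166. The difference between the FST288 effects was 1.51 ± 0.37 (limma adjusted p = 0.13), and 2.15 without LTKO GFP replicate 2 (0.00306). LTKO and HFD livers with GFP differed by 0.38 ± 0.26 (limma adjusted p = 0.421), by 1.02 without LTKO GFP replicate 1 (adjusted p = 0.00307) and by -0.26 without replicate 2.

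Summed macrophage markers, like Igfbp1, were highest on the 2 LTKO FST288 arrays. The summed level of 11 Kupffer and macrophage markers was 9.70 and 10.83 there, against 9.53 and 9.42 in LTKO GFP and 9.08 to 9.33 in HFD FST288 livers (log2 of the sum). In HFD GFP livers it reached 9.57. Medians of the same 11 markers were 5.98 and 7.12 in LTKO FST288 and 5.86 and 5.96 in LTKO GFP livers. They were 5.55 to 5.87 in HFD FST288 and 5.56 to 6.04 in HFD GFP livers. By median, LTKO FST288 replicate 1 thus lay below HFD GFP replicate 1, and replicate 2 alone was above all other groups. Within the LTKO GFP pair Igfbp1, at 7.99 and 9.27, went the other way from the sums and the same way as the medians. Of the 11 markers 9 were higher in LTKO than in HFD livers with FST288, with a median change of 0.93, and without the acinar-high arrays limma called 0, with a median change of 1.00. By limma 0 were called for FST288 against GFP in LTKO livers. LTKO FST288 replicates 1 and 2, with marker sums of 9.70 and 10.83, had Igfbp1 values of 9.85 and 10.24. The part of the macrophage markers in the Igfbp1 values was not tested.

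**Figure D2:**
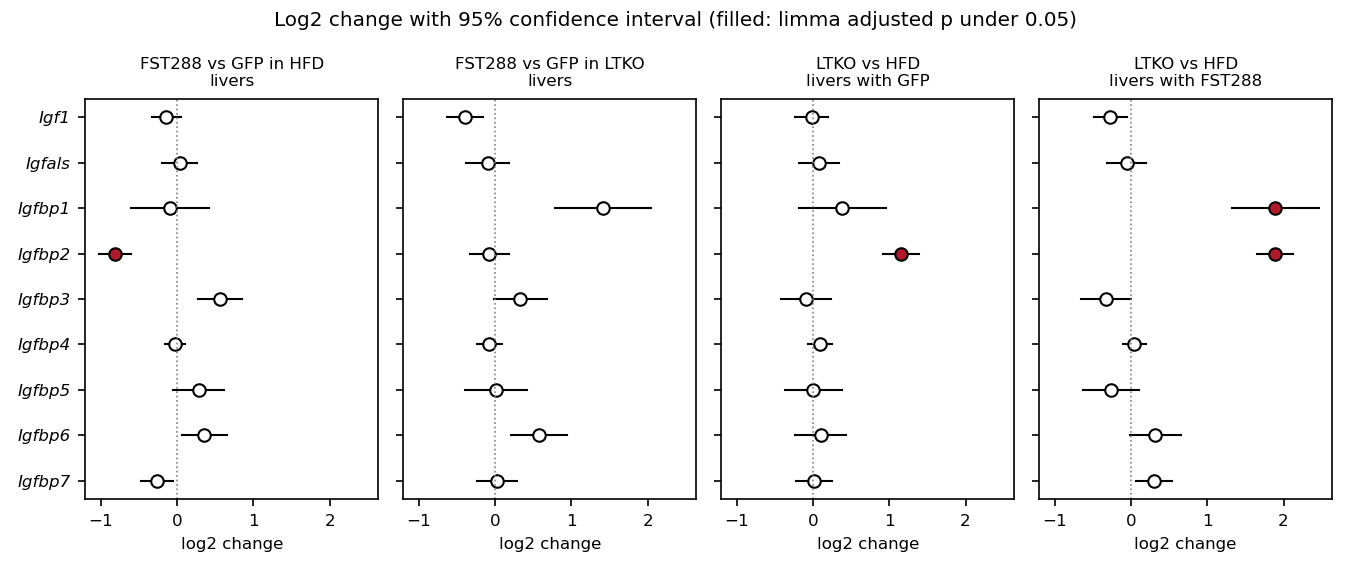
Log2 change of each member in 4 comparisons, as points with 95% confidence intervals from the fit; a filled point marks an adjusted p under 0.05. Igfbp2 is filled in 3 panels, Igfbp1 in the panel of LTKO against HFD livers with FST288, and the other 7 genes in none.

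Igf1, the hormone itself, ranged over 0.59 log2 units and was called in none of the comparisons of the main fit. The HFD GFP arrays read 9.36, 9.25 and 9.36 and the HFD FST288 arrays 9.21, 9.17 and 9.16, which did not overlap, but the change of -0.14 ± 0.09 was not called (limma adjusted p = 0.581), and it was -0.12 without the acinar-high arrays. The LTKO GFP arrays read 9.50 and 9.12, the highest and the third lowest of the study, and the LTKO FST288 arrays both 8.91, the lowest. Hence the change with FST288 in LTKO livers was -0.40 ± 0.11, or 1.32-fold, with an interval from -0.64 to -0.16 and no call (unadjusted p = 0.00278, limma adjusted p = 0.237). It was -0.59 and called without LTKO GFP replicate 2 (adjusted p = 0.0347) and -0.21 without replicate 1 of that group. Between the backgrounds Igf1 differed by -0.02 ± 0.10 with GFP (limma adjusted p = 0.948) and by -0.27 ± 0.10 with FST288 (0.116). The latter was called without LTKO GFP replicate 1 (0.0261) or 2 (0.0256). The cluster's value does not separate the splice forms of Igf1.

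Igfals, which encodes the liver-made subunit of the circulating complex, lay between 6.16 and 6.49 on all arrays. Its groups overlapped in each comparison, and its changes of -0.10 to 0.08 had adjusted p from 0.757 to 0.942. Igfbp3, which encodes the main carrier in that complex, read 5.10, 4.81 and 4.93 in HFD GFP and 5.70, 5.29 and 5.56 in HFD FST288 livers. Every FST288 liver was above every GFP liver. The change of 0.57 ± 0.13, or 1.48-fold, missed the threshold (interval from 0.28 to 0.86, limma adjusted p = 0.0711), and it passed with array weights (0.0479) or without dim genes (0.0447). Leaving out 1 array gave changes from 0.47 to 0.68 with adjusted p from 0.0644 to 0.255. The change was 0.76 without the acinar-high arrays (adjusted p = 0.369) and 0.77 with the acinar level in the fit (0.207). In LTKO livers Igfbp3 read 4.96 and 4.75 with GFP and 5.09 and 5.29 with FST288, a change of 0.33 ± 0.16 (limma adjusted p = 0.535). Its change in LTKO minus that in HFD livers was -0.24 ± 0.21 (adjusted p = 0.702).

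Igfbp6, a binding protein with a preference for IGF2, was dim but above the median of gene means, 3.12. It read 3.69, 3.58 and 3.61 in HFD GFP and 3.84, 4.04 and 4.06 in HFD FST288 livers, and 3.67 and 3.78 in LTKO GFP and 4.08 and 4.51 in LTKO FST288 livers. The FST288 arrays were thus above the GFP arrays in both backgrounds. Changes of 0.35 ± 0.14 and 0.58 ± 0.17 were not called (limma adjusted p = 0.301 and 0.265), and the change in HFD livers was 0.21 without the acinar-high arrays. Igfbp5, a matrix-associated binding protein, had values from 4.21 to 4.89 and changes of 0.28 ± 0.15 in HFD and 0.01 ± 0.19 in LTKO livers (limma adjusted p = 0.518 and 0.991). The former was 0.10 without the acinar-high arrays.

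Igfbp7, a low-affinity binding protein of vessel walls, read 8.91, 8.57 and 8.64 in HFD GFP and 8.52, 8.31 and 8.51 in HFD FST288 livers. Each FST288 liver was below each GFP liver, with a change of -0.26 ± 0.10 (limma adjusted p = 0.282), and of -0.19 without the acinar-high arrays. In LTKO livers the 4 values lay between 8.65 and 8.80. Igfbp4, which encodes a binding protein that inhibits IGF action, had the narrowest range of the members, from 9.73 to 9.95. Its changes in the 4 comparisons lay between -0.08 and 0.09.

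Summed markers of several cell types did not overlap between the HFD groups. The summed level of 12 endothelial markers was 10.53 to 10.57 in HFD GFP and 10.36 to 10.50 in HFD FST288 livers, and that of 6 mesothelial markers 5.82 to 6.12 and 6.27 to 6.30. Medians of the same lists overlapped, at 6.63 to 6.76 and 6.64 to 6.76 for endothelial and 2.91 to 3.23 and 3.12 to 3.33 for mesothelial markers. Hepatocyte sums were 15.18 to 15.25 with GFP and 15.10 to 15.13 with FST288, where Ttr and Apoa1, which encode plasma proteins, were called lower by 0.39 ± 0.06 and 0.40 ± 0.07 on the log2 scale (limma adjusted p = 0.00877 and 0.0145). Cholangiocyte sums, 5.41 to 5.53 and 5.54 to 5.72, and sums of T and B cell markers, 4.89 to 5.08 and 4.73 to 4.88, did not overlap either. Their ranges nearly touched, at 5.530 and 5.539 for cholangiocyte and 4.887 and 4.881 for T and B cell markers. Medians of these dim lists overlapped, at 2.36 to 2.66 and 2.58 to 2.97 for cholangiocyte markers. For T and B cell markers they were 2.50 to 2.82 and 2.55 to 2.71. By limma 0 genes of either list were called. For 12 stellate cell markers the ranges overlapped, at 10.43 to 10.57 and 10.48 to 10.56. Of the endothelial, mesothelial and stellate markers 1 was called in that comparison, the stellate and pericyte marker Rgs5, which was lower (-0.40 ± 0.08, limma adjusted p = 0.0277). Without the acinar-high arrays limma called 0 of the hepatocyte and 0 of the stellate markers. The part of these markers in the values of Igfbp3, Igfbp5, Igfbp6 and Igfbp7 was not tested. In such bulk samples fewer cells of a type and less RNA per cell cannot be told apart.

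In counts, 1 of the 9 members was called for FST288 in HFD livers, where limma called 0.996% of all genes, 0.577% as higher and 0.419% as lower. At an unadjusted p under 0.05 there were 4 members and 12% of all genes. In LTKO livers 0 members were called, with 3 at an unadjusted p under 0.05, against 0.167% of all genes called and 9.98% at that unadjusted p. For the difference of the effects limma called 0 members, with 2 at an unadjusted p under 0.05, against 0.216% of genes called and 12.6% at that unadjusted p. For LTKO against HFD livers 1 member was called with GFP and 2 with FST288, all as higher. Of all genes 13.1% were called with GFP (6.69% higher, 6.4% lower) and 10.3% with FST288 (5.05% higher, 5.29% lower). At an unadjusted p under 0.05 there were 1 member and 25.2% of genes with GFP, and 5 members and 20.9% of genes with FST288. Groups did not overlap in 5 members for FST288 in HFD livers (18.4% of all genes) and in 5 in LTKO livers (37.8%). They did not overlap in 2 members for LTKO against HFD livers with GFP (40.3%) and in 6 with FST288 (37.4%). The median change of the members was -0.03, 0.01, 0.08 and 0.04 in these 4 comparisons, and that of all genes -0.003, -0.02, 0.01 and -0.0002. The median size of change, without its sign, was 0.26 for the members and 0.12 for all genes in HFD livers, 0.10 and 0.13 in LTKO livers, 0.09 and 0.17 for LTKO against HFD livers with GFP, and 0.30 and 0.15 with FST288. Whether the family stands apart from the other genes was not tested.

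Few receptors or other ligands of the pathway were called. Of 8 measured genes in a list of receptors, adaptors and related ligands, limma called 0 for FST288 in HFD and 0 in LTKO livers. Igf1r, the IGF1 receptor, had changes of 0.16 ± 0.15 and -0.09 ± 0.18, and Igf2r, which clears IGF2, of 0.31 ± 0.10 and 0.06 ± 0.13 (adjusted p from 0.211 to 0.932). In LTKO against HFD livers 2 of the 8 were lower with GFP, Irs1 and Irs2, which are deleted in that model. With FST288 3 were lower, those and Insr, the insulin receptor (-0.36 ± 0.10, limma adjusted p = 0.0402, lost in 8 of 10 leave-one-out fits and at -0.38 without the acinar-high arrays, adjusted p = 0.27). A list of IGFBP proteases, their inhibitors and related genes had 11 measured genes. They include Igf2bp3, which encodes a protein that binds RNA rather than IGF. Also among them is B4galnt2, a glycosyltransferase gene matched by an alias in place of an Igf2bp gene. Of the 11, 1 was called in any comparison. It was Klk1, a kallikrein, lower in LTKO than in HFD livers with FST288. Its values were 8.23 and 7.15 on the acinar-high arrays and 1.67 to 2.53 on the other 8 arrays, and without the acinar-high arrays it was not called (adjusted p = 0.382).

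The growth hormone receptor gene differed between the backgrounds, and Igf1 itself was not called. Ghr, the receptor, read 8.37 to 8.48 in HFD GFP, 8.26 to 8.33 in HFD FST288, 7.62 and 7.54 in LTKO GFP and 7.34 and 7.35 in LTKO FST288 livers. It was lower in LTKO livers by 0.85 ± 0.08 with GFP and 0.94 ± 0.08 with FST288 on the log2 scale (limma adjusted p = 1.23e-05 and 4.99e-06), in all leave-one-out fits. With GFP it was the 1 gene called of the 12 measured in growth hormone receptor signalling. The FST288 differences in Ghr were -0.14 ± 0.07 in HFD and -0.23 ± 0.09 in LTKO livers (limma adjusted p = 0.484 and 0.411). Of the 12 measured genes of growth hormone receptor signalling, Cish, a feedback inhibitor that STAT5 induces, was the 1 called with FST288 in HFD livers. It read 3.91, 3.93 and 3.89 with GFP and 4.46, 4.57 and 4.65 with FST288 (0.65 ± 0.11, limma adjusted p = 0.0152). That call was lost without any of the 3 HFD GFP arrays and without HFD FST288 replicate 2 or 3, and the change was 0.55 without both acinar-high arrays (adjusted p = 0.651). With the mean of its clusters in place of the brightest it was 0.44 (adjusted p = 0.157). Socs2, another STAT5 target, read 5.49 to 5.62 in HFD GFP and 5.97 to 6.80 in HFD FST288 livers, with 7.14 and 5.03 in LTKO GFP livers (change in HFD 0.81 ± 0.38, limma adjusted p = 0.423). In LTKO against HFD livers with FST288, Ghr was lower. Cish was lower too (-0.78 ± 0.13, limma adjusted p = 0.0011), a call lost without the acinar-high arrays (-0.68, adjusted p = 0.0704) or if its clusters are averaged (-0.46, 0.0594). Conversely, the cytokine feedback inhibitor Socs3 was higher (0.61 ± 0.17, limma adjusted p = 0.032, lost in 4 leave-one-out fits and 0.111 without the acinar-high arrays).

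Of 15 measured growth hormone-responsive liver genes, Igf1 and Igfals among them, 3 rose with FST288 in HFD livers, Cish, Onecut1 and Cyp4a12a, and by limma 0 were called in LTKO livers. Onecut1, a hepatocyte transcription factor, rose by 1.54 ± 0.22 (limma adjusted p = 0.00469) and was not called without the acinar-high arrays (1.81, adjusted p = 0.0939). In LTKO against HFD livers with GFP, 1 was higher, Cyp4a12a, and 5 were lower. The lower genes included Egfr, the EGF receptor (-0.87 ± 0.09, limma adjusted p = 2.72e-05), and Mup20, a major urinary protein (-1.78 ± 0.29, adjusted p = 0.00109). With FST288 9 were lower, among them Hsd3b5, a male-predominant steroid enzyme (-3.12 ± 0.44, limma adjusted p = 0.00036). Without the acinar-high arrays 6 were lower, and Cish, Cyp4a12a and Cyp2d9 lost their calls (adjusted p = 0.0704, 0.117 and 0.191). Over this list the median change in LTKO against HFD livers was -0.38 with GFP and -0.84 with FST288 (-0.71 without the acinar-high arrays), where Igf1 was at -0.02 and -0.27 and Igfals at 0.08 and -0.05.

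**Figure D3:**
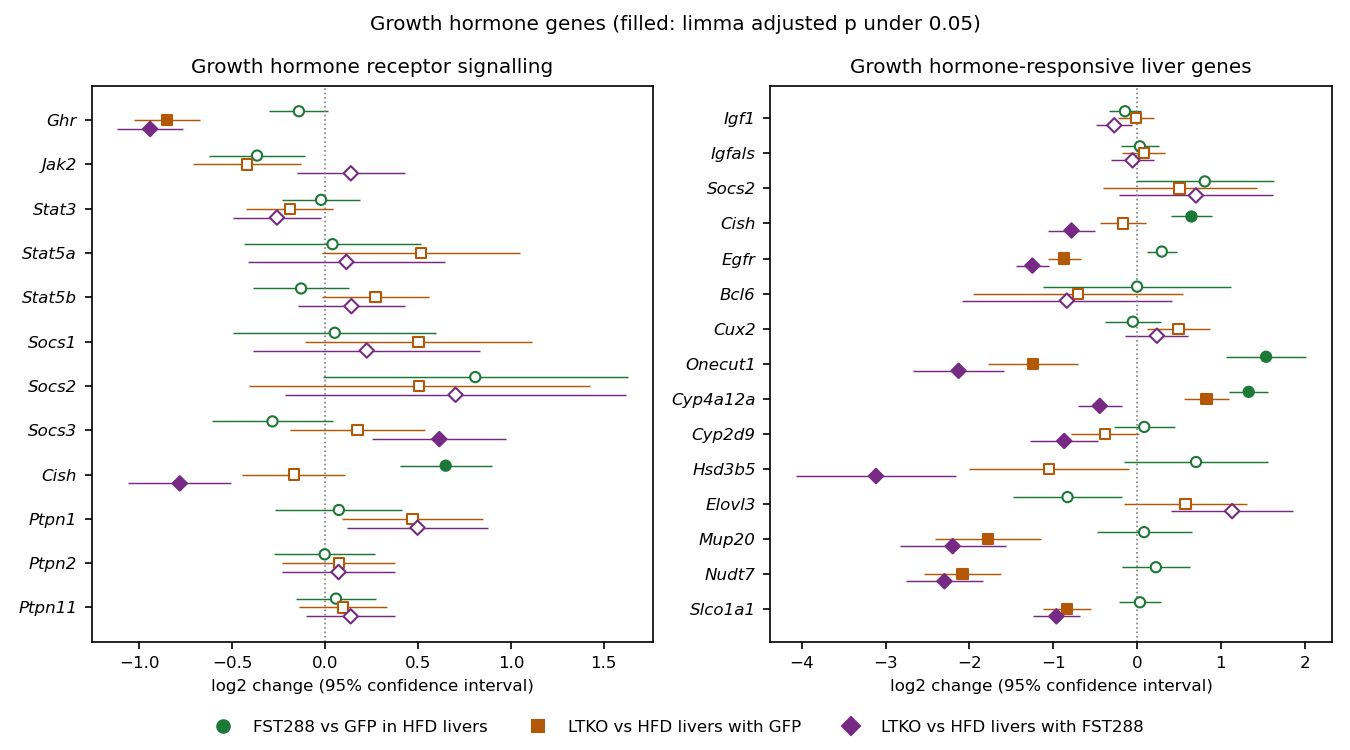
Log2 change with 95% confidence interval for genes of growth hormone receptor signalling (left) and growth hormone-responsive liver genes (right), for FST288 against GFP in HFD livers (circles) and LTKO against HFD livers with GFP (squares) or FST288 (diamonds); filled marks have an adjusted p under 0.05. Ghr is lower in LTKO livers by 0.85 and 0.94, while the points of Igf1 and Igfals lie between -0.27 and 0.08.

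Of 15 measured genes that insulin or FoxO factors regulate, Igfbp1 among them, 7 were lower and 1 higher in LTKO than in HFD livers with GFP. The 7 include Irs2, which is deleted in these mice. G6pc and Pck1, which encode enzymes of glucose production, were lower by 0.65 ± 0.16 and 0.52 ± 0.11 on the log2 scale (limma adjusted p = 0.0151 and 0.0072), calls that were both lost without LTKO GFP replicate 1, and that of G6pc also without HFD GFP replicate 3. Igfbp1, which is classed with them as a FoxO target, was at 0.38 ± 0.26. With FST288 6 were lower, Irs2 again among them, and 1, Igfbp1, was higher. Without the acinar-high arrays 3 were lower and Igfbp1 was higher, and the calls of Insr, Srebf1 and Mttp were lost (adjusted p = 0.27, 0.0748 and 0.144). With FST288 in HFD livers, Txnip, a glucose-induced inhibitor of thioredoxin (1.22 ± 0.16, limma adjusted p = 0.00216), and Mttp, which loads lipid onto lipoproteins (0.48 ± 0.09, 0.0201), rose. Srebf1, the lipogenic transcription factor, fell (-1.17 ± 0.14, limma adjusted p = 0.00108). Without the acinar-high arrays these 3 changes were 1.15, 0.46 and -1.08, with adjusted p of 0.258, 0.635 and 0.15, and that of Mttp was also lost in 5 leave-one-out fits. In LTKO livers limma called 0 of the 15 for FST288.

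The genes with values most like those of Igfbp1 and Igfbp2 were found by the root mean square difference over the 10 arrays, each gene centred on its own mean, among 10335 genes with a mean above the median of gene means, predicted or unnamed loci, small RNA genes and olfactory receptors left out. For Igfbp2 they were Oat, an ornithine aminotransferase of pericentral hepatocytes (0.21), Pnrc1, a nuclear receptor coactivator (0.22), and Itih3, a plasma protease inhibitor chain (0.23), where Igfbp2 itself varied about its mean by 0.82. Group means of Oat were 10.21 in HFD GFP, 9.47 in HFD FST288, 11.03 in LTKO GFP and 11.17 in LTKO FST288 livers. For Igfbp1, which varied by 0.78, they were Pla2g7, a lipoprotein-associated phospholipase of macrophages (0.27), Saa3 (0.34) and Lcn2 (0.35), which encode acute phase proteins. Pla2g7 read 3.84 and 4.29 in LTKO GFP and 4.92 and 5.63 in LTKO FST288 livers, against 3.18 to 3.38 in all HFD livers. Likeness over 10 arrays in 4 groups describes these arrays alone.

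**Figure D4:**
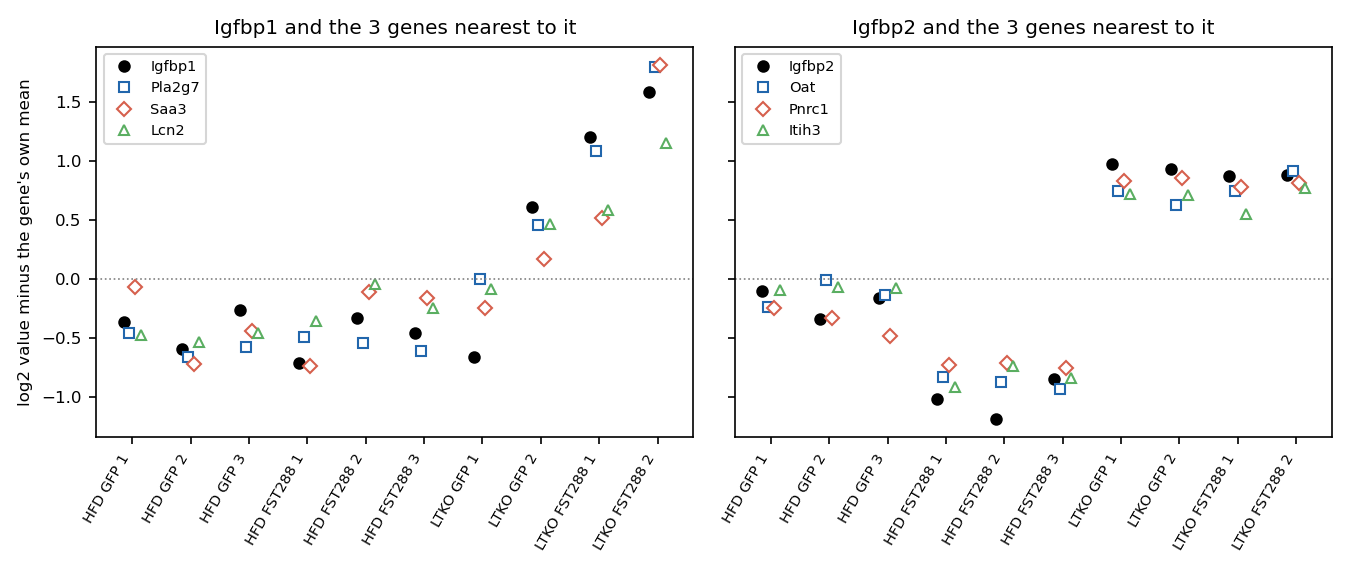
Log2 value minus the gene's own mean on each array, by group and replicate, for Igfbp1 (left) and Igfbp2 (right) and the 3 genes nearest to each. The values of Igfbp2, Oat, Pnrc1 and Itih3 are lowest on the 3 HFD FST288 arrays and highest on the 4 LTKO arrays; Igfbp1 and its neighbours are highest on the 2 LTKO FST288 arrays.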

How the data were processed

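Liver RNA of 10 samples was measured on 1 Affymetrix whole-transcript array each. The deposited values are log2 intensities from RMA, which the authors ran in Expression Console, per the submitters' processing notes. Versions and log base are not given in the sources used here; RMA and the range, 0.64 to 13.21, are the grounds for log2. RMA sets all arrays to one distribution, so a change shared by most genes would not be seen. Of 41345 transcript clusters, 23521 have 1 gene symbol in the platform table; those with several (1814) or none (16010) were left out, and the brightest cluster stood for a gene, giving 22180 genes. limma 3.58.1 in R 4.3.3 fitted all 10 arrays together, with a mean for each group (eBayes with an intensity trend; 6 residual and 7.15 prior degrees of freedom). Tests are two-sided, p was adjusted by Benjamini-Hochberg over all genes within a comparison, and the threshold for a call was an adjusted p under 0.05. Errors of changes are SE, errors of means SD, and intervals cover 95%. The procedure was tested on simulated data. The members and the lists were chosen with earlier results of these data known. Named genes are the 9 members, Fst, Irs1, Irs2 and Foxo1, called and smallest-p genes of 5 pathway lists, and the 3 genes most like each called member; Rgs5, Ttr and Apoa1 were chosen after their values were seen. Markers of T and B cells, adipocytes and cholangiocytes were also summed; their levels were 4.73 to 5.79, 5.17 to 5.71 and 5.35 to 5.72.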

Additional observations from a re-analysis of the deposited data

Results flagged for a closer look

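The effect of FST288 on Cyp4a12a, a male-predominant fatty acid hydroxylase in the growth hormone-responsive list, differed between the backgrounds. It rose by 1.33 ± 0.11 on the log2 scale in HFD livers while the value in LTKO livers was 0.06 ± 0.13, a difference (LTKO minus HFD) of -1.27 ± 0.17 with a limma adjusted p of 0.0112. Group means were 6.12 ± 0.15 in HFD GFP, 7.45 ± 0.11 in HFD FST288 and 6.95 ± 0.15 in LTKO GFP livers (SD), and the LTKO FST288 arrays read 7.10 and 6.91. The difference was -1.40 without the acinar-high arrays (adjusted p = 0.156), and its adjusted p was 0.0773 without the intensity trend and 0.111 with all transcript clusters; it was called in all 10 fits that left out 1 array. Groups of 2 or 3 arrays are too small for a check of single outlying arrays.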

How the results depend on the processing

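Of 972 values of members under 22 other settings, 959 kept their side of the threshold, 2 calls were lost and 11 gained, and 0 called values turned direction. The lost calls are those of Igfbp2 in HFD livers under the settings on acinar-high arrays, which were chosen with results known and leave 1 array in that group or spend a degree of freedom. Members called for FST288 in HFD livers were 2 with array weights and 2 with the filter on dim genes (both times with Igfbp3), 0 without the acinar-high arrays and 0 with the acinar covariate (2 at an unadjusted p under 0.05 by limma in each), and 1 in all leave-one-out fits. Leaving out 1 array gave 0 to 2 members for FST288 in LTKO livers, 0 to 1 for the difference, 1 to 2 for LTKO against HFD livers with GFP and 2 to 3 with FST288. With the replicate block 1 member was called in LTKO livers, Igfbp1 (1.41, adjusted p = 0.0245), and 28 genes in place of 48 differed between the effects. The block could not be fitted between backgrounds, and it changed no other call of a member. In the labels, same-numbered samples shared only a number. Deviations of same-numbered arrays from their group means correlated at -0.01 to 0.01 in HFD and -0.07 in LTKO livers. With 2 arrays a group the deviations mirror each other, so the LTKO value cannot decide whether the numbers mark pairs. Over all genes, 221 were called for FST288 in HFD livers, 411 with only the arrays compared, 101 without the trend, 80 with all transcript clusters, 6 without the acinar-high arrays, 33 with the acinar covariate and 80 to 307 leaving out 1 array (99 to 129 without an HFD GFP array, 80 and 91 without HFD FST288 replicates 2 and 3). In LTKO livers 37 were called, and 0 (1665 at an unadjusted p under 0.05 by limma), 16, 15, 16 and 23 under the same settings, 22 with array weights and 21 to 237 leaving out 1 array (237 without LTKO FST288 replicate 1). For the difference they were 48, and 3 without the trend, 6 with all clusters, 1 and 8 under the acinar settings and 11 to 266 leaving out 1 array (266 without LTKO FST288 replicate 1). LTKO against HFD livers gave 2902 genes with GFP (1870 to 3037, the lowest without LTKO GFP replicate 1) and 2293 with FST288 (1533 to 2390; 939 and 1127 under the acinar settings). The causes of these changes were not tested. With 2 or 3 arrays a group, intervals are wide, and a missing call does not show that a gene stayed the same.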
